A study of Mus musculus with 3 samples.

Results

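The lysosomal cathepsins and legumain are the proteases that break down proteins in lysosomes. The members were chosen by name, as the protein-coding genes Ctsa, Ctsb, Ctsd, Ctsh, Ctsk, Ctsl, Ctss, Ctsz and Lgmn, and all 9 were found among the 56748 genes of the deposited table. Their mRNA was measured by RNA sequencing in visceral adipose fibroblasts of wild-type (WT) mice kept on a high-fat diet. These were stromal vascular cells, which remain when fat cells are taken out of the tissue, depleted on magnetic columns of CD45+, CD31+ and Ter119+ cells. The 3 libraries came from cells given vehicle (labelled Veh), recombinant mouse oncostatin M (Osm, 3 ng/mL, 24 h) or recombinant human TGF-beta1 (TGF, 3 ng/mL, 24 h). The labels state no treatment time for vehicle and no number, age or sex of the mice. With a single library for each condition, no difference has a replicate check and no p-value is given. Each interval is an exact 95% interval of the ratio of counts between a pair of libraries. It covers counting error only, and the reads carry no molecular identifiers.

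Cathepsins are made as inactive precursors, sorted to endosomes and lysosomes largely through mannose 6-phosphate receptors, and activated there by cleavage at acid pH. Most of them (B, H, K, L, S and Z) are papain-like cysteine proteases, while cathepsin D is an aspartic protease, cathepsin A a serine carboxypeptidase, and legumain a separate cysteine protease that cuts after asparagine and helps to mature the others. In connective tissue fibroblasts take up collagen and degrade it in lysosomes, and some cathepsins also act outside the cell. Cystatins are the main natural inhibitors of the papain-like cathepsins, and some also inhibit legumain. Transcription factors of the MiT/TFE family (Tfeb, Tfe3, Mitf) bind a short palindrome, the CLEAR element, in the promoters of many lysosomal genes.

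The TGF-beta1 library held less mRNA of the 8 members detected above trace level than either other library, while the Osm library lay close to vehicle. Together the members took 0.842% of all counted reads with vehicle, 0.872% with Osm and 0.506% with TGF-beta1. Their summed level in CPM (read counts scaled to library size) was 8395 with vehicle and 8708 with Osm, while the TGF-beta1 library held 5092 CPM, 1.65-fold below vehicle. With TGF-beta1, 7 of the 8 were at least 1.5-fold lower than with vehicle and 1, Lgmn, at least 2-fold lower. Over all 13712 genes that reached 1 CPM in at least 1 library, 9.53% were at least 1.5-fold lower and 4.79% at least 2-fold lower, in each case with an interval that left out a ratio of 1. None of the 8 was higher with TGF-beta1 by either rule, against 6.01% and 2.27% of all genes. With Osm, 0 of the 8 differed from vehicle by 1.5-fold or 2-fold in either direction, against 3.76% and 1.60% of all genes. Among genes at 100 CPM or more, as these 8 are, the shares were 0.423% and 0.0846%, so 0 of 8 is near the background. Ctsd lay outside the 1.5-fold rule for TGF-beta1 at 1.31-fold lower, and Ctsz just inside it at 1.55-fold lower. All 8 stood at 100 CPM or more in every library, so none entered through a single library. Ctss did not reach 1 CPM and is described apart. In these bulk libraries, fewer cells of a type and less RNA per cell cannot be told apart.

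**Figure D1:**
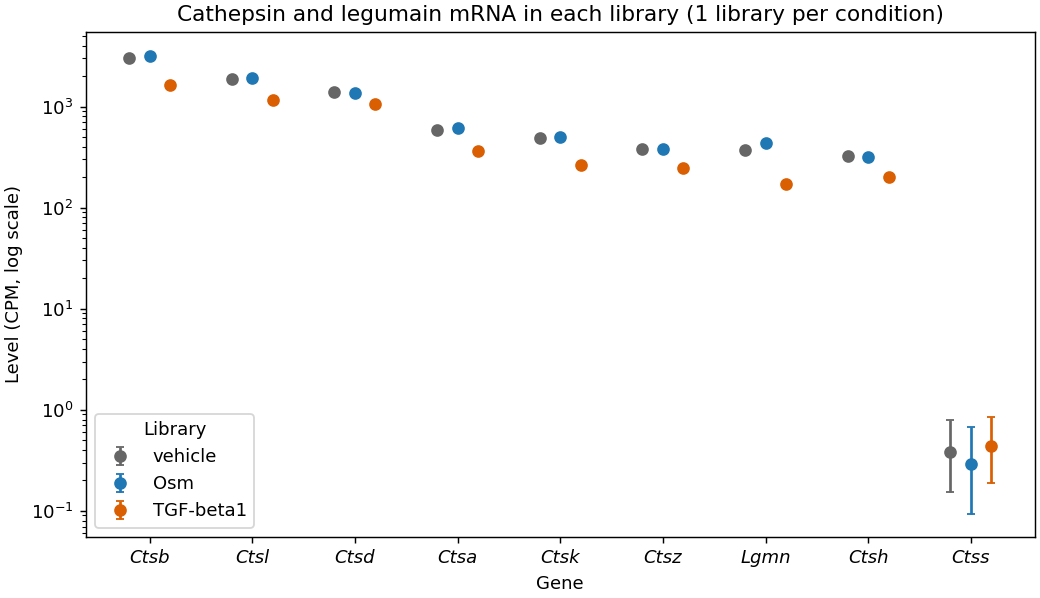
Level of each member in CPM (y axis, log scale) in each of the 3 libraries, with exact 95% Poisson intervals that cover counting error only. For the 8 abundant genes the TGF-beta1 point lies below the other points, while the Ctss points lie under 1 CPM with overlapping intervals.

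Several checks of the libraries stand beside this result. The vehicle library held 18336068 counted reads, the Osm library 17319872 and the TGF-beta1 library 18533741. The fibroblast markers Col1a1, Col1a2, Pdgfra, Pdgfrb, Dcn, Lum and Thy1 were present in every library. Their summed level was 13433, 12575 and 16813 CPM in that order. With TGF-beta1, 3 of the 7 (42.9%) were at least 1.5-fold lower and 1 higher, against 9.53% and 6.01% of all genes. The lower ones were Dcn (2.41-fold), Pdgfra (1.62-fold) and Lum (1.59-fold), within or beyond the range of the members. The higher one was Col1a1 (1.88-fold). Acta2, a gene known to respond to TGF-beta1, stood at 445.6, 421.7 and 1327 CPM, and Serpina3n, an acute-phase gene, at 192.8, 397.1 and 63.1 CPM. The 16 leukocyte markers summed to 25.1, 21.7 and 18.3 CPM, and 4, 3 and 3 of them reached 1 CPM. Among the defining ones, Itgam and Cd3e had no reads in any library, and Ptprc and Adgre1 had no reads with vehicle. Most of the leukocyte sum came from Cd68, itself a lysosomal membrane protein (8.91, 6.68 and 3.69 CPM), Csf1r (8.48, 8.41 and 10.2 CPM) and Cd14 (5.71, 5.24 and 2.88 CPM). Endothelial markers summed to 50.4, 40.7 and 36.3 CPM, nearly all from Tek, and mural markers to 37.2, 37.9 and 94.0 CPM. Of the 4 mural markers tested, only Cspg4 was above vehicle with TGF-beta1, at 8.53, 7.38 and 74.9 CPM. The other 3 were below vehicle with TGF-beta1: Abcc9 (4.29, 6.05 and 1.74 CPM), Notch3 (14.6, 15.5 and 10.4 CPM) and Myh11 (9.35, 8.53 and 6.57 CPM). Mesothelial markers summed to 4.18, 4.26 and 6.40 CPM, adipocyte markers to at most 0.288 CPM, and the 6 erythroid markers had no reads. The part of any of these marker differences in the members' values was not tested.

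Promoter sequence was examined because the members moved together with TGF-beta1 and lysosomal genes are known to share the CLEAR element. RefSeq promoter windows of build GRCm38.p6, running from 250 bases before an annotated start to 50 after it, matched 7 of the 9 members (all but Ctsb and Ctsh) with 9 windows in all. The 8-base core TCACGTGA, read on both strands, was found in 2 of the 9 member windows, of Ctsa and Ctsd, and in 0.974% of all 32851 windows. It contains the E-box CACGTG, which was found in 4 of the 9 member windows, of Ctsa, Ctsd, Ctsl and Lgmn, and in 7.15% of all windows. The other annotated window of Ctsa and that of Lgmn held no E-box. In windows of the other lysosomal lists the core and the E-box were found in 12 and 28 of 150. A match is a description of the letters and not a binding site. The stretches below run from 150 bases before the start to 20 after it, in the direction of transcription, with the 8-base core or the E-box in capitals. They are shown for Ctsa with its pair of matches, for Ctsd, which had the smallest TGF-beta1 difference of the 8 members tested, and for Lgmn, which had the largest.
Ctsa, the further downstream of its annotated starts, chr2:164833623-164833792, plus strand: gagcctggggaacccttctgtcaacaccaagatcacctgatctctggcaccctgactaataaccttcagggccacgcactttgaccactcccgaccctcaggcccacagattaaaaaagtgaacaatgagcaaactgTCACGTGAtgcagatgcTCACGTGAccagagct
Ctsd, chr7:142387808-142387977, minus strand: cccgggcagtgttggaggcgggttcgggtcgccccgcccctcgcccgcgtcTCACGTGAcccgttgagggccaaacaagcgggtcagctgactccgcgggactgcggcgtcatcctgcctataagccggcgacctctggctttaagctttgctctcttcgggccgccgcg
Lgmn, the further downstream of its annotated starts, chr12:102439073-102439242, minus strand: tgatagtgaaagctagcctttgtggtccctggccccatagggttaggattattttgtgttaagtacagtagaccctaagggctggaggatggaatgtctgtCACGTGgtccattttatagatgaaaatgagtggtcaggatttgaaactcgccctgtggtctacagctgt

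In the Ctsa stretch the core began 13 bases before the start and again 4 bases after it, and in the Ctsd stretch 99 bases before it. The Lgmn stretch held the E-box, beginning 49 bases before the start, without the flanking letters of the core. The part of these letters in the TGF-beta1 values was not tested. The M-box core TCATGTG, on either strand, was found in 2 of the 9 member windows, of Ctsa and Ctss (3.77% of all windows). The STAT motif TTCNNNGAA was found in no member window (8.30% of all windows), and the SMAD palindrome GTCTAGAC in none either (0.213%). The SMAD-type hexamer CAGACA was found in 3 of the 9 member windows, of Ctsk and Lgmn, and in 21.0% of all windows. It overlapped none of the E-boxes. No match says only that these letters are not in this window.

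Legumain, the asparaginyl endopeptidase, had the lowest TGF-beta1 to vehicle ratio of the 8. Lgmn (ENSMUSG00000021190, chromosome 12, 102360343 to 102406072, minus strand, build mm39) was at 370.7 CPM with vehicle, 439.4 with Osm and 171.5 with TGF-beta1. Its level was highest with Osm and lowest with TGF-beta1. It was 2.16-fold lower with TGF-beta1 than with vehicle (2.07 to 2.26) and 1.19-fold higher with Osm (1.15 to 1.23). Osm stood 2.56-fold above TGF-beta1 (2.46 to 2.67). This was the largest difference among the 8 members tested in each of the 3 comparisons, which share libraries and so are not independent.

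Cathepsin K, a strong collagenase best known from bone-resorbing osteoclasts, and cathepsin B, a broadly expressed endopeptidase and dipeptidyl carboxypeptidase, came next. Ctsk (ENSMUSG00000028111, chromosome 3, 95406567 to 95416673, plus strand) stood at 493.6, 495.5 and 263.1 CPM with vehicle, Osm and TGF-beta1. It was 1.88-fold lower with TGF-beta1 (1.81 to 1.94) and equal to vehicle within counting error with Osm (1.00-fold, 0.975 to 1.03). Ctsb (ENSMUSG00000021939, chromosome 14, 63359911 to 63383372, plus strand) was the most read member, at 3000, 3193 and 1617 CPM. It was 1.86-fold lower with TGF-beta1 (1.83 to 1.88) and 1.06-fold higher with Osm (1.05 to 1.08). The TGF-beta1 intervals of Ctsk and Ctsb overlapped each other, and neither overlapped that of Lgmn. Fdft1, which overlaps Ctsb on the opposite strand, stood at 231, 231 and 228 CPM.

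The other cysteine cathepsins and cathepsin A formed a group with like ratios. Ctsl (ENSMUSG00000021477, chromosome 13, 64507151 to 64518704, minus strand), a major lysosomal endopeptidase, was at 1851, 1914 and 1170 CPM with vehicle, Osm and TGF-beta1. It was 1.58-fold lower with TGF-beta1 (1.55 to 1.61) and 1.03-fold higher with Osm (1.02 to 1.05). Ctsh (ENSMUSG00000032359, chromosome 9, 89936205 to 89958142, plus strand), an aminopeptidase, stood at 324.9, 315.6 and 202.2 CPM, 1.61-fold lower with TGF-beta1 (1.54 to 1.67). Ctsz, a carboxypeptidase also called cathepsin X (ENSMUSG00000016256, chromosome 2, 174269286 to 174280832, minus strand), was at 381.9, 377.3 and 246.7 CPM, 1.55-fold lower (1.49 to 1.61). Ctsa (ENSMUSG00000017760, chromosome 2, 164674793 to 164682952, plus strand) encodes the serine carboxypeptidase that also protects lysosomal beta-galactosidase and neuraminidase. Its levels of 591.1, 607.2 and 362.8 CPM put it 1.63-fold below vehicle with TGF-beta1 (1.58 to 1.68). In the order Ctsa, Ctsh, Ctsl, Ctsz, each interval overlapped the next. On the opposite strand Ctsa overlaps Pltp, at 151, 121 and 90.3 CPM, and Ctsz overlaps Nelfcd, at 22.3, 22.5 and 18.6 CPM, and reads of such pairs may not have been told apart. For Ctsh and Ctsz the Osm to vehicle intervals held a ratio of 1, and for Ctsa the lower bound lay at 1.00 (1.00 to 1.06).

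Cathepsin D, the aspartic protease of lysosomes, had the smallest TGF-beta1 difference of the 8. Ctsd (ENSMUSG00000007891, chromosome 7, 141929648 to 141941775, minus strand) was at 1381 CPM with vehicle, 1366 with Osm and 1058 with TGF-beta1. It was 1.31-fold lower with TGF-beta1 (1.28 to 1.33), an interval that overlapped that of no other member among the 8. The Osm library was within counting error of vehicle (0.989-fold, with an interval that held 1). Ctsd carries an uncertainty of counting, because 32.4% of its 50-base transcript windows also occur in Gm49369, an annotated gene that overlaps it on the same strand and had 0 counts in all libraries. How such reads were counted is not stated in the labels or the table. For Ctsl 6.46% of windows were shared with other genes, and for the remaining members at most 0.253%.

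Cathepsin S, which degrades the invariant chain in antigen-presenting cells, was nearly absent. Ctss (ENSMUSG00000038642, chromosome 3, 95434097 to 95463714, plus strand) had 7 reads with vehicle, 5 with Osm and 8 with TGF-beta1, or 0.380, 0.288 and 0.434 CPM. A count of 0 would have allowed up to 0.163, 0.173 and 0.163 CPM in these libraries. Its ratio of TGF-beta1 to vehicle had an interval from 0.361 to 3.70, so a difference was not detectable at this depth. Its neighbour Ctsk, on the same chromosome and strand, was among the abundant members in every library.

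**Figure D2:**
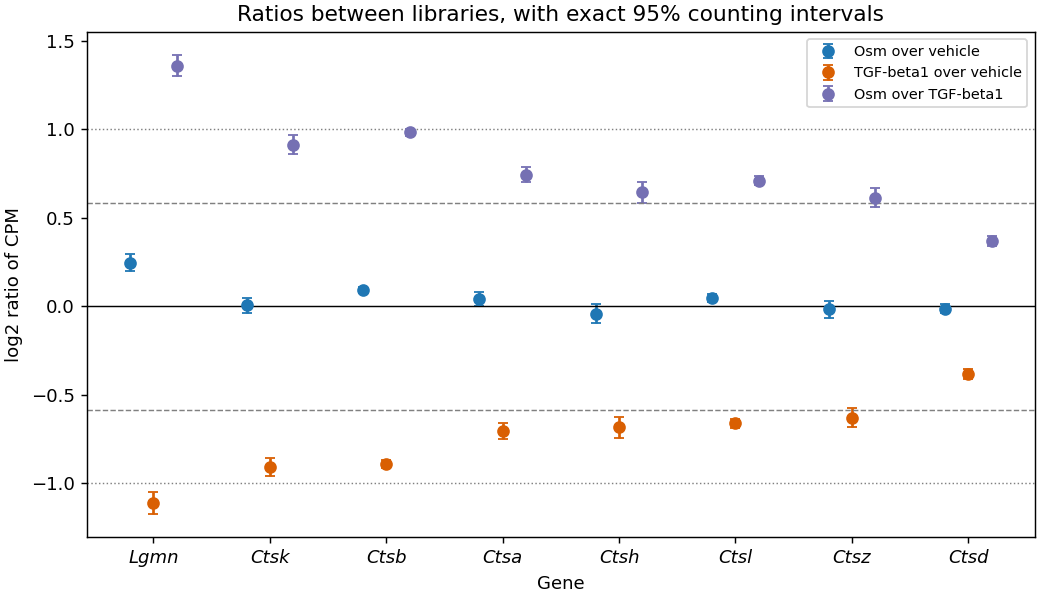
Log2 ratio of CPM (y axis) for the 8 members tested, in the 3 comparisons, with exact 95% counting intervals, the 1.5-fold lines dashed and the 2-fold lines dotted. Osm over vehicle lies near 0 except for Lgmn at 0.25, TGF-beta1 over vehicle runs from -1.11 for Lgmn to -0.38 for Ctsd, and Osm over TGF-beta1 from 0.37 to 1.36.

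Over the 8 members tested, the median log2 ratio of TGF-beta1 over vehicle was -0.69, ranging from -1.11 to -0.38, with all 8 below 0. Over all genes tested the median was 0.01 and 48.7% were below 0. Among the 2364 genes at 100 CPM or more, the range of level in which the members lie, 7.87% were at least 1.5-fold lower with TGF-beta1. For Osm over vehicle the members' median was 0.02, with 5 above 0 and 3 below, against 0.00 over all genes, and 4 of the 8 intervals left out a ratio of 1 (Ctsa, Ctsb, Ctsl and Lgmn). Osm and TGF-beta1 were given at the same concentration for the same time, and their libraries differed directly by a median log2 ratio of 0.73. In that comparison 7 of the 8 were at least 1.5-fold higher with Osm (9.93% of all genes) and 1, Lgmn, at least 2-fold higher (5.07% of all genes). Ctsd was again the exception, 1.29-fold higher with Osm (1.27 to 1.32).

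Levels of different genes were compared per kilobase of the gene length that the authors' table gives. With vehicle, Ctsd was highest at 587.4 CPM per kilobase, then Ctsb (495.8), Ctsk (326.4), Ctsl (285.3), Ctsz (265.0), Lgmn (159.6), Ctsa (125.4), Ctsh (72.2) and Ctss (0.280), all in CPM per kilobase. No neighbours in this order had overlapping counting intervals, but the order depends on the length used. With the principal transcripts of an earlier mouse annotation (GENCODE vM21), a length chosen after the data were seen, Ctsl at 454.9 CPM per kilobase stood above Ctsk at 326.4, and Ctsh at 200.9 stood above Lgmn at 193.8 and Ctsa at 162.1. Within a gene the comparison between libraries is free of this choice. With TGF-beta1, Ctsd made up 31.3% of the members' summed per-length level, against 25.3% with vehicle and 24.4% with Osm. The share of Ctsb was 18.6% with TGF-beta1 against 21.4% and 22.2%, that of Ctsk 12.1% against 14.1% and 13.8%, and that of Lgmn 5.13% against 6.89% and 7.94%. The mixture with TGF-beta1 thus held relatively more cathepsin D and less cathepsin B, cathepsin K and legumain mRNA.

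**Figure D3:**
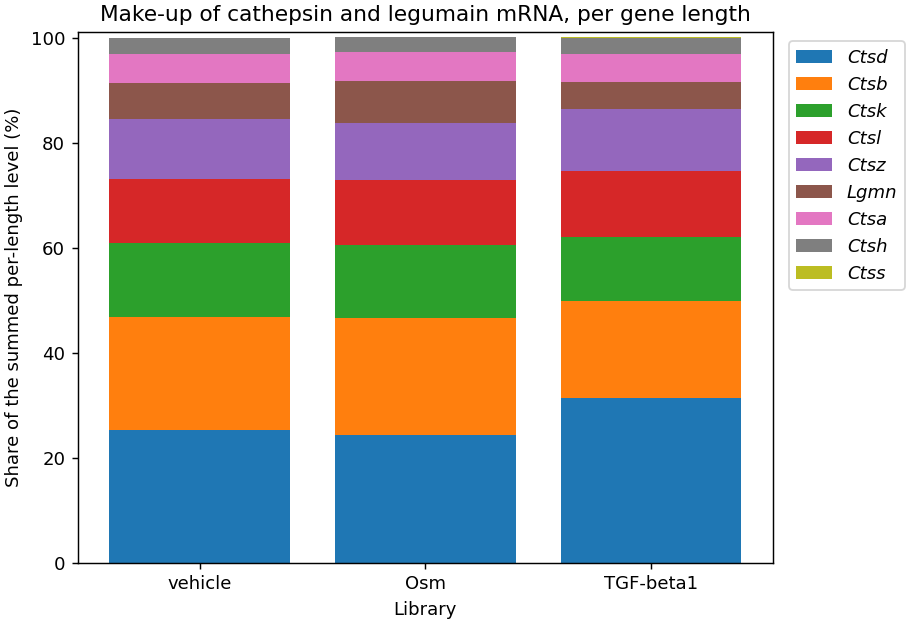
Share of each member in the members' summed level per kilobase of gene length (y axis, percent) in the 3 libraries, by the lengths of the deposited table. The Ctsd share is 31.3% with TGF-beta1 against 25.3% with vehicle, and the Lgmn share 5.13% against 6.89%.

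Other cathepsins were rare or absent in these cells. Of 14 further cathepsin genes, 10 had no reads in any library, among them the placental cathepsins Ctsj, Ctsm, Ctsq and Ctsr and the granulocyte protease Ctsg, and 4 reached 1 CPM. Ctsf and Ctso, both papain-like lysosomal proteases, went the way of the members. Ctsf was at 34.8, 30.9 and 14.9 CPM with vehicle, Osm and TGF-beta1, 2.33-fold lower with TGF-beta1 (2.02 to 2.70). Ctso was at 44.9, 43.2 and 21.4 CPM, 2.10-fold lower (1.86 to 2.37). Ctsc, the dipeptidyl peptidase that activates granule serine proteases, differed from them at 47.7, 47.8 and 56.3 CPM, 1.18-fold higher with TGF-beta1 (1.08 to 1.29). Ctsw, named here after its values were seen, rested on 7, 1 and 23 reads. It counted as higher with TGF-beta1, but it reached 1 CPM only in that library (0.380, 0.0576 and 1.25 CPM).

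Genes of inhibitors of some cathepsins or of legumain were uneven. Of 16 such genes, 7 reached 1 CPM, and 3 of the 7 (42.9%) were at least 1.5-fold lower with TGF-beta1 and none higher, against 9.53% lower and 6.01% higher of all genes. Cst3, which encodes the secreted inhibitor cystatin C and was the most read of them, stood at 517.0, 510.4 and 296.7 CPM with vehicle, Osm and TGF-beta1. It was 1.74-fold lower with TGF-beta1 (1.69 to 1.80), a ratio inside the range of the members it inhibits. Kng2, a kininogen, a protein with cystatin domains, was at 75.8, 106.1 and 14.9 CPM, 5.10-fold lower with TGF-beta1 (4.48 to 5.83) and 1.40-fold higher with Osm. Kng1, named after its values were seen, had 46, 59 and 6 reads. Kng1 and Kng2 are related genes between which the authors' counting could have split reads, so their values are uncertain. By contrast the intracellular inhibitor Cstb was at 128.8, 134.6 and 118.6 CPM, 1.09-fold lower with TGF-beta1 (1.02 to 1.15). The protease-inhibiting serpin Serpinb6a was at 489.9, 476.3 and 483.1 CPM, a ratio within counting error of 1 with TGF-beta1 (0.958 to 1.02). Serpinb1a was 1.06-fold lower (0.918 to 1.23) at 20.5, 27.6 and 19.3 CPM. Cst6, a cystatin that inhibits legumain as well as cathepsins, was 1.44-fold lower (1.13 to 1.83) at 9.29, 8.24 and 6.46 CPM.

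Most other soluble enzymes of the lysosome had ratios below 1 with TGF-beta1, while those of the lysosomal proton pump lay on both sides. Of 41 acid hydrolases and activators tested, 40 had a log2 ratio below 0, against 48.7% of all genes, and their median was -0.50, against 0.01. By the 1.5-fold rule 16 of the 41 (39.0%) were lower, against 9.53% of all genes, and none higher. By the 2-fold rule 2 of the 41 (4.88%) were lower, against 4.79% of all genes and 2.44% of those at 10 CPM or more, and 2 genes are too few to read a difference from. Hexa, a subunit of beta-hexosaminidase, was at 325.1, 337.9 and 160.9 CPM with vehicle, Osm and TGF-beta1, 2.02-fold lower (1.93 to 2.11). The abundant Psap, the precursor of the saposin activators, was at 3234, 3253 and 1912 CPM, 1.69-fold lower (1.67 to 1.71). Smpd1, the acid sphingomyelinase, lay nearer to vehicle at 1.12-fold lower (1.04 to 1.21). Acp5, tartrate-resistant acid phosphatase, was low at 5.98, 5.30 and 2.66 CPM.

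Lysosomal membrane proteins had a smaller lean, with a median of -0.27 and 17 of 20 below 0, against 48.7% of all genes. Past 1.5-fold were 0 of the 20, against 9.53% lower and 6.01% higher of all genes. This count depends on how genes were listed. The lysosomal membrane protein gene Cd68, kept among the leukocyte markers and not in this list, was 2.42-fold lower with TGF-beta1 (1.81 to 3.25). Lamp1, a main glycoprotein of the lysosomal membrane, was at 2221, 2145 and 1526 CPM, 1.46-fold lower with TGF-beta1 (1.43 to 1.48), and Lamp2 1.39-fold lower (1.36 to 1.42). Slc66a1, a lysosomal exporter of basic amino acids, went the other way at 13.2, 16.2 and 15.7 CPM. Subunits of the V-ATPase, the pump that acidifies lysosomes, had a median of -0.01. Of the 17, 9 (52.9%) lay below 0, a share like the 48.7% of all genes. None of these 17 was past 1.5-fold, against the same 9.53% and 6.01%. Atp6v1b2 marked their low end at 1.26-fold lower (1.20 to 1.31) and Atp6v0d1 their high end at 1.13-fold higher (1.07 to 1.20). A further subunit gene, Atp6v0d2, was kept among the osteoclast markers and not in the 17. It was 3.79-fold lower with TGF-beta1 (2.80 to 5.20).

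Genes that bring enzymes to the lysosome or set its number were read against the same 9.53% of all genes lower by 1.5-fold with TGF-beta1. Of 14 sorting genes 1 (7.14%) was past 1.5-fold, Sort1, which encodes the sorting receptor sortilin and was at 29.7, 26.3 and 12.2 CPM, 2.45-fold lower (2.09 to 2.87). Igf2r, the large mannose 6-phosphate receptor, was 1.08-fold lower (1.04 to 1.12) at 303.1, 300.6 and 280.9 CPM. Of 15 MiT/TFE and nutrient-sensing genes 3 were at least 1.5-fold lower and none higher. They were Rragd, a Rag GTPase at 26.2, 25.4 and 11.8 CPM (2.22-fold lower, 1.89 to 2.62), Mitf and, named after its values were seen, Fnip2 at 70.7, 81.9 and 43.9 CPM. Mitf was at 76.7, 77.8 and 40.9 CPM, 1.88-fold lower (1.72 to 2.06). Tfe3 was 1.16-fold higher (1.09 to 1.25) at 81.1, 83.1 and 94.4 CPM, and Tfeb, at 6.63, 5.82 and 5.80 CPM, had an interval that held 1 (0.669 to 1.15). Of 15 autophagy genes 1 (6.67%) was past 1.5-fold, Atg7 at 1.56-fold lower (1.40 to 1.75). The adaptor Sqstm1 was at 1076, 1035 and 1123 CPM.

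Collagen uptake genes lay on both sides of vehicle with TGF-beta1, with 3 of 7 below 0. The collagen receptor gene Mrc2, whose product Endo180 carries collagen fragments into the cell, was at 758.3, 755.9 and 787.6 CPM, 1.04-fold higher with TGF-beta1. Itga11, a collagen-binding integrin, was 1.42-fold higher (1.38 to 1.47), and Itga2 2.03-fold higher (1.48 to 2.80) at a low level of 3.32 and 6.73 CPM. Mmp14, a membrane collagenase that cuts collagen at the cell surface, was the gene past 1.5-fold on the lower side (interval 1.47 to 1.54) at 1084, 1098 and 721.2 CPM, within the range of the cathepsins. Mfge8, which helps cells take up debris and collagen, was 1.14-fold lower (1.10 to 1.19). Of the 7 genes tested in that list, 1 was at least 1.5-fold lower and 1 at least 1.5-fold higher. Across the 9 lists of other lysosomal, inhibitor, autophagy and collagen uptake genes, 140 genes were tested. With TGF-beta1, 27 of them (19.3%) were at least 1.5-fold lower and 2 higher, against 9.53% and 6.01% of all genes. The 2 higher were Itga2 and Ctsw, and Ctsw passed the 1 CPM limit only through the TGF-beta1 library. Of the 27, 16 were acid hydrolases and none came from the lists of membrane proteins or V-ATPase subunits, so the pooled share does not describe each list. Cd68 and Atp6v0d2, kept among the cell type markers, are not in these counts. With Osm, 0 of the 140 differed from vehicle by 1.5-fold, against 3.76% of all genes and 0.684% of those at 10 CPM or more, and 0 is near the latter share.

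**Figure D4:**
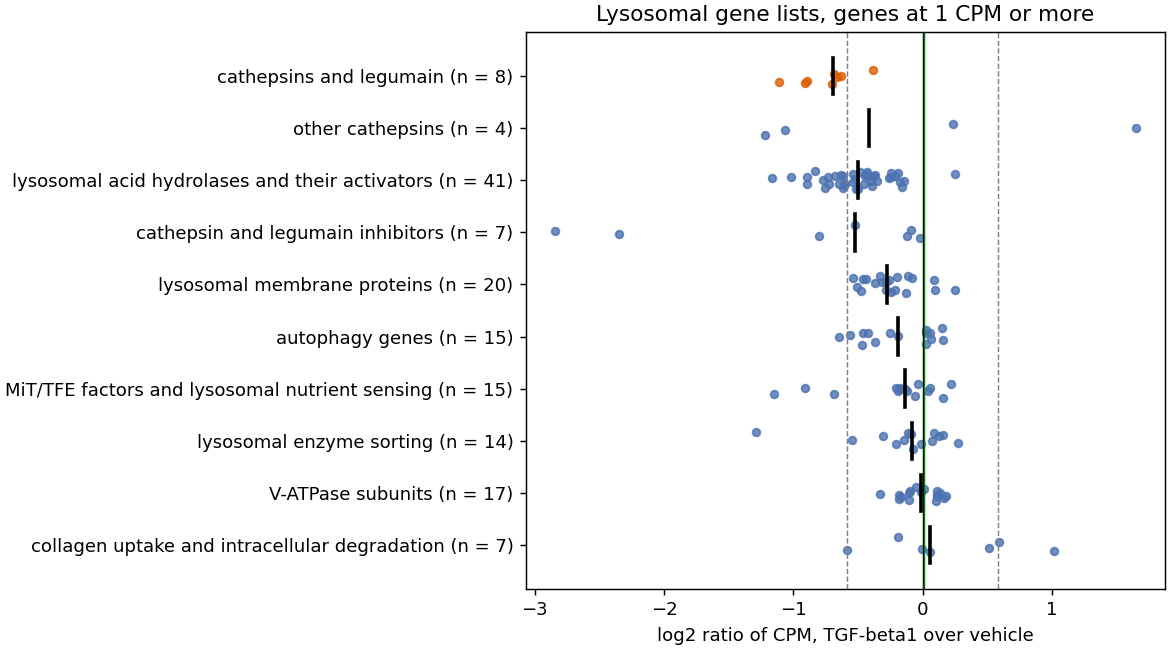
Log2 ratio of TGF-beta1 over vehicle (x axis) for each gene of the cathepsin and legumain group and of 9 related lists, with black bars for list medians, dashed lines at 1.5-fold and a green line at the median of all genes tested. The 8 members lie between -1.11 and -0.38, the 41 acid hydrolases have a median of -0.50 and the 17 V-ATPase subunits a median of -0.01.

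The genes most like the members in pattern were sought in these 9 lists, among 136 genes at 5 CPM or more, by the distance between log2 ratios of Osm and of TGF-beta1 over vehicle. This measure rests on 3 libraries that share a control and is a description. Mitf lay nearest to Ctsk (distance 0.02 on the log2 scale), followed by the dipeptidyl peptidase gene Dpp7 (0.08) and Naglu (0.09), a heparan sulfate hydrolase. Hexa lay nearest to Lgmn (0.21), then Rragd (0.29) and Mitf (0.30). No gene of the lists was as close to Lgmn as the third was to Ctsk, and none of these 3 had the 1.19-fold higher level with Osm that Lgmn had.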

How the data were processed

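RNA was sequenced from 3 libraries, 1 each of vehicle, Osm and TGF-beta1, grouped by sample title. Per the labels' protocols, mRNA was selected with oligo-dT beads, and library types with and without strand information are described without saying which was made, so reads of genes overlapping on opposite strands may not have been told apart. The authors deposited unnormalized counts for each Ensembl gene, together with FPKM values. The deposited FPKM were the same counts per gene length and per effective library size, and served as an alternative. Build mm39 and the programs TopHat2, HISAT, HISAT2 and CASAVA, with no version or role, come from the submitters' processing notes. The counter and annotation release were not given in the sources used here.

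Counts were scaled to CPM with TMM factors (edgeR 4.0.16, R 4.3.3). The 13712 of 56748 genes that reached 1 CPM in any library were compared and are called tested. Log2 ratios carry a prior count of 0.5. A gene was counted at least 1.5-fold or 2-fold higher or lower where the log2 ratio reached that size and the exact 95% interval (conditional binomial, Clopper-Pearson) left out 1. Levels have exact Poisson intervals, and a count of 0 was taken to allow up to 3 counts. The interval code was tested on simulated data. DESeq2 1.42.0 gave alternative size factors. Tables and figures were made in Python 3.11.15 (matplotlib 3.10.9, pandas 2.3.3, scipy 1.17.1, numpy 2.4.6).

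The members and gene lists were chosen with earlier results of these data known. All members are named. From each other list the rule took the lowest and the highest TGF-beta1 ratios and the highest mean levels among genes at 5 CPM or more, every inhibitor at that level, Tfeb, Tfe3 and Mitf, response genes, and the 3 list genes nearest in pattern to Lgmn and to Ctsk. Not every gene it takes is described, and some are not reported here. Of 226 other list symbols 224 were found, the missing ones being alternative symbols of listed genes. Coordinates of genes are those of the deposited table (mm39), and promoter windows are from RefSeq (GRCm38.p6). Shared 50-base windows were counted in GENCODE vM21 transcripts. Protein sequences were not analysed here.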

Additional observations from a re-analysis of the deposited data

How the results depend on the processing

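Scaling by DESeq2 size factors, by count totals alone or by upper quartile factors, a prior count of 2, and the authors' FPKM values with a pseudocount of 0.1 left the counts of members past 1.5-fold and 2-fold as they were in all 3 comparisons. The FPKM values carry the same relative library sizes as the DESeq2 factors, so they are not a separate check of scaling. All scaling factors ran from 0.9923 to 1.0052, so a change of scaling could move the ratios only a little. The members' median log2 ratio of TGF-beta1 over vehicle ran from -0.71 to -0.69 over these settings, that of Osm over vehicle from 0.02 to 0.02 and that of Osm over TGF-beta1 from 0.72 to 0.74. No scaling moved the median of all genes by as much as 0.1 (log2). Ctsk in Osm over vehicle, within counting error of 1, took either sign (-0.0004 to 0.0057). The share of all genes past a fold depended on the level required. At 10 CPM or more, 2.44% of genes were at least 2-fold lower with TGF-beta1 (4.79% at 1 CPM), 0.150% and 0.684% differed by 2-fold and 1.5-fold with Osm, and 2.40% and 6.52% were higher by 2-fold and 1.5-fold with Osm over TGF-beta1. At 100 CPM or more, a limit chosen after the data were seen, the first 3 shares were 3.17%, 0.0846% and 0.423%, and 3.05% were 2-fold higher with Osm over TGF-beta1. Per-length levels by transcript length moved beyond counting error for 18 of 27 values. No paired analysis was possible because each group has 1 library, and for the same reason none could be left out. The spread between cultures was not measured for any ratio given. Among the members, counting depth limited only Ctss.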

Other observations

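Osteoclasts are the cells best known for cathepsin K. Of their 7 other markers examined, 2 reached 1 CPM, and both were at least 2-fold lower with TGF-beta1, against 4.79% of all genes. Atp6v0d2, a V-ATPase subunit known from osteoclasts and macrophages and named here after its values were seen, was at 11.3, 10.8 and 2.98 CPM with vehicle, Osm and TGF-beta1, 3.79-fold lower with TGF-beta1 (2.80 to 5.20). Acp5 was 2.25-fold lower (1.59 to 3.22). The osteoclast-defining genes Calcr and Dcstamp had no reads in any library, and Mmp9 and Oscar at most 0.217 CPM. Ocstamp had 0, 4 and 1 reads with vehicle, Osm and TGF-beta1. This Atp6v0d2 ratio lay below those of all 17 V-ATPase subunits of the list in the report, which ran from 1.26-fold lower to 1.13-fold higher.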
